A study of Mus musculus with 8 samples.

Results

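Livers of fasted adult mice lacking Btg2 were compared with wild-type livers across 11799 genes, on 4 of the 8 arrays of the study. Both groups were male C57BL/6J mice, 10 weeks old, that had been without food for 20 h. The knockout lacked TIS21, the older name of Btg2, and the controls were wild type for it, so the groups shared strain, sex, age and fasting. Total RNA of the liver was hybridised to 1-colour Agilent mouse arrays. Fed mice were not analysed here. The design text describes technical duplication, so the 2 arrays of a group were taken as 2 measurements of 1 RNA sample. The labels and design text do not say how many mice stood behind each adult RNA sample or how the allele was made. The values below therefore compare 2 RNA samples, and their spread is that between arrays, not that between animals, so no p-value is given for a difference. A gene was included when its probe passed the scanner's background criterion on both arrays of wild type, of knockout, or of both. This held for 11799 of the 20284 genes with a named probe.

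Btg2 belongs to the BTG/TOB family, small proteins that restrain cell division and bring the CCR4-NOT deadenylase complex to mRNAs. In a fasted liver, fatty acids released from adipose tissue activate the nuclear receptor PPAR-alpha, which raises the genes of fatty acid uptake, oxidation and ketone body formation. At the same time falling insulin lets the SREBP factors, which drive fatty acid and cholesterol synthesis, go quiet, while glucagon and glucocorticoids hold up glucose output. Most liver RNA comes from hepatocytes, but Kupffer cells, the resident macrophages, and endothelial and stellate cells add their own.

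All 4 arrays lay on 1 slide, with the first array of each group in slide row 1 and the second in row 2, and the groups in different columns. Each array's signal was divided by its own 75th percentile, which was 132 to 133 in wild type and 169 to 171 in knockout. The result is called relative signal, and a value of 1 is that percentile. Between 38.5% and 42.3% of probes were well above background, and no spot was saturated. The median gap between duplicates over the genes was 0.07 (log2) in wild type and 0.05 in knockout. The wild-type pair was the looser one, with 115 genes whose duplicates differed more than 2-fold against 21 in knockout. The Btg2 probe, checked first, had relative signals of 1.12 and 1.20 in wild type and 0.0366 and 0.0473 in knockout, and neither knockout array was well above background. That made knockout at least 7.63-fold lower, a bound that sets the knockout arrays at the lowest signal that was well above background. The arrays thus matched their labels at this probe, although where the probe lies relative to the removed part of the gene is unknown here.

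A gene was called higher or lower in knockout when it differed at least 2-fold in that direction in each of the 4 pairings of a knockout with a wild-type array. By this rule 398 genes (3.37% of 11799) were higher and 192 (1.63%) were lower in the knockout sample. These shares, and 5.0% for either direction, are the background for every count below. The whole set had a median log2 difference, always given as knockout minus wild type, of -0.08, and 80.6% of genes lay within 1.5-fold. The ranges of the duplicates did not overlap between groups in 82.8% of genes, and by the rule they cannot overlap in a called gene. A further 168 genes reached 2-fold between the means of the duplicates but not in every pairing. At least 4-fold differences were seen in 90 genes that were higher and 44 that were lower. The balance differed with brightness. Among 1508 genes at a relative signal of 32 or more the median difference was -0.27, with 20 higher and 39 lower, whereas among 3520 genes under 1 it was 0.08, with 193 higher and 61 lower. The filter let in 354 genes that were dim on both wild-type arrays and 58 that were dim on both knockout arrays. Bounds from such genes made up 62 of the higher and 13 of the lower calls. Among the 10996 genes well above background on all 4 arrays, 305 were higher and 169 lower. Of the 590 called genes 67.5% were higher. When each array was scaled by its median instead, 403 genes were higher and 82 lower (83.1% higher), and the median of all genes became 0.12. Scaling by the 75th percentile of detected probes gave 497 and 138 (78.3% higher), and leaving out the first wild-type array gave 468 and 371 (55.8% higher). In an extract of whole liver, fewer cells of a type and less RNA per cell cannot be told apart.

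**Figure D1:**
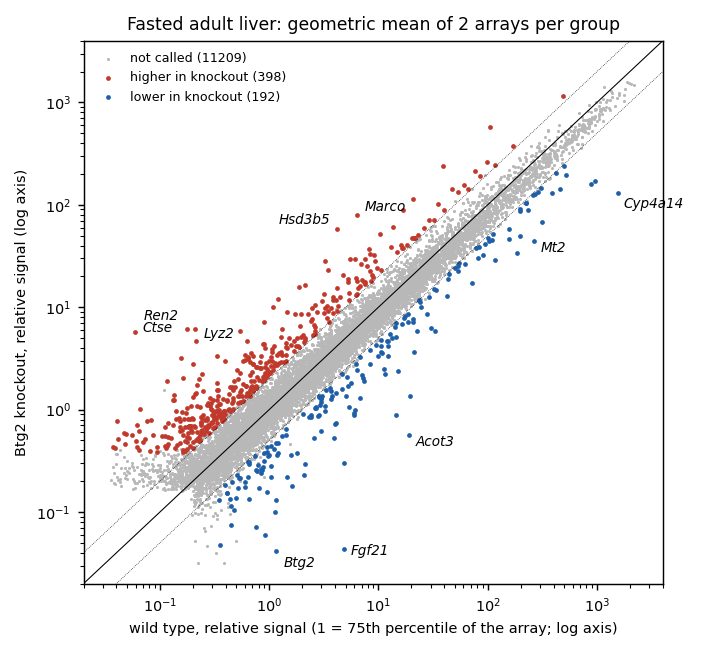
Relative signal of 11799 genes in wild type (horizontal) and Btg2 knockout (vertical), each the geometric mean of 2 arrays, on log axes; the solid line marks equality and the dotted lines 2-fold. Among genes at a relative signal of 32 or more, blue genes called lower (39, Cyp4a14 among them) outnumber red genes called higher (20), while red genes are the more numerous at lower signal.

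Several groups of genes by which a fasted liver handles fatty acids were lower in the knockout sample. The lowest median of any of the 36 pathway lists belonged to the acyl-CoA thioesterases, enzymes that release free fatty acid and coenzyme A from acyl-CoA, most of which are known PPAR-alpha targets. All 8 measured members were lower in value and 6 of the 8 were called lower, against 1.63% of all genes. The median difference of the family was -2.18. Acot3, a peroxisomal thioesterase, had relative signals of 19.4 and 18.4 in wild type and 0.495 and 0.631 in knockout, a log2 difference of -5.08 (pairings -5.29 to -4.87). Acot1, the cytosolic enzyme, read 122 and 109.7 in wild type and 29.1 and 28.1 in knockout, and the mitochondrial Acot2 read 1.48 and 1.43 in wild type and 0.216 and 0.228 in knockout. Acot1 differed by -2.01 and Acot2 by -2.71. Acot4 (-2.36), Acot5 (-2.68) and Acot8 (-1.28) completed the calls. Acot8 lost its call when arrays were scaled by their medians, and Acot6 did not pass the background criterion in either group.

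The carriers and enzymes that feed fatty acids into this route split. Slc27a1, a fatty acid transporter known best from muscle and fat, was lower at 5.89 and 6.35 in wild type and 1.01 and 0.993 in knockout, a difference of -2.61 (pairings -2.68 to -2.54). Vldlr, the very low density lipoprotein receptor, was lower (-1.62), a call lost after normexp correction, and Lpl, the lipase that frees fatty acids from lipoproteins, was higher (1.76). The remaining 13 of the 16 measured members were not called. Fabp1, the main fatty acid binding protein of hepatocytes, differed by -0.29 and Slc27a2 by -0.57. The scavenger receptor Cd36 differed by -0.80, and the median of the list (-0.03) turned positive under 5 of 5 other scalings and background corrections, from 0.03 to 0.17.

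In the mitochondria most oxidation genes read lower in knockout, but by less than the 2-fold rule. Of 22 measured members 19 had negative differences, 3 were called lower, none was called higher and the median was -0.81. Cpt1a, the carnitine transferase that admits long-chain fatty acids, read 126 and 124 in wild type and 61.9 and 63.2 in knockout, with pairings from -1.03 to -0.98. Acadm, the medium-chain dehydrogenase, read 299 and 289 in wild type and 148 and 147 in knockout, with pairings from -1.02 to -0.97. Both were close to 2-fold apart, but 1 or more pairings fell short of the rule. Pdk4, which keeps pyruvate out of the mitochondria during fasting, was called lower at 3.33 and 3.20 in wild type and 1.07 and 1.08 in knockout (-1.60). Hadhb, a subunit of the trifunctional protein, and Slc22a5, the carnitine importer, were the others called lower (-1.12 and -1.06). Those 2 calls were lost under 5 of 5 other scalings and background corrections, where Pdk4 alone stayed called and the median ran from -0.58 to -0.68. Of the 22 members 13 had a relative signal of 32 or more, a class whose median over all genes was -0.27.

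Peroxisomal oxidation, which shortens very long fatty acids, showed 4 members lower and 1 higher of 18 measured, with a median of -0.58. Ehhadh, the bifunctional enzyme and a classical PPAR-alpha target, was lower at 199.7 and 193 in wild type and 49.8 and 50.2 in knockout, a difference of -1.97 (pairings -2.00 to -1.94). Acaa1a (-1.07), Pex11a (-1.16) and Decr2 (-1.09) were the other members called lower. The calls of Acaa1a and Decr2 were lost under 5 of 5 other scalings and background corrections, and that of Pex11a under 3 of 5. In the other direction Nudt7, a peroxisomal hydrolase of coenzyme A, was higher at 54.5 and 52.1 in wild type and 131 and 133 in knockout (1.31).

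In microsomal omega-hydroxylation the calls fell on part of the Cyp4a subfamily. Cyp4a10, Cyp4a14, Cyp4a31 and Cyp4a32, its PPAR-alpha-induced members, were all called lower. Cyp4a14 read 1555 and 1568 in wild type and 131 and 129 in knockout, a difference of -3.59 (pairings -3.61 to -3.57). Cyp4a10 read 969.8 and 957 in wild type and 173 and 172 in knockout (-2.48), Cyp4a31 differed by -2.44 and Cyp4a32 by -2.45. These paralogs are close in sequence, so their probes may share signal. The androgen-dependent Cyp4a12a read 63.1 and 61.1 in wild type and 81.9 and 80.6 in knockout and was not called (0.39). With 10 of 14 members not called, the median of the Cyp4 list was 0.20.

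The hormone Fgf21, which the fasted liver secretes under PPAR-alpha, was lower in knockout. It read 4.91 and 4.70 in wild type and 0.0527 and 0.0355 in knockout, and neither knockout array was well above background, so knockout was at least 31.7-fold lower. Bdh1, which forms beta-hydroxybutyrate, differed by -0.71 and was not called. Oxct1, which burns ketone bodies and is normally low in hepatocytes, was called higher at 1.01 and 0.928 in wild type and 2.30 and 2.39 in knockout (1.28), a call lost after normexp background correction. Acat1 was called lower (-1.03), a call lost under 5 of 5 other scalings and background corrections.

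Proteins of the lipid droplet, the store of triglyceride, gave negative differences in all 18 measured members, and 6 were called lower. Under median scaling 11 of the 18 were negative and 4 were called. Cidec, which fuses droplets, read 19.2 and 19.4 in wild type and 1.35 and 1.39 in knockout, a difference of -3.82 (pairings -3.84 to -3.79). Cidea, its relative, read 0.883 and 0.954 in wild type and 0.0752 and 0.0477 in knockout and was at least 6.05-fold lower. G0s2, an inhibitor of the lipase Pnpla2, read 70.9 and 71.1 in wild type and 16.7 and 17.6 in knockout (-2.05), while Pnpla2 itself differed by -0.58. Mogat1 (-1.89), Mgll (-1.21) and the droplet coat protein Plin2 (-1.04) were the others called. The median of the list was -0.47, and 4 or 5 members were called under the other scalings and background correction. Plin2 lost its call under 5 of 5 of these, Mgll under 3 of 5 and with the mean of its probes, and Mogat1 after normexp correction.

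**Figure D2:**
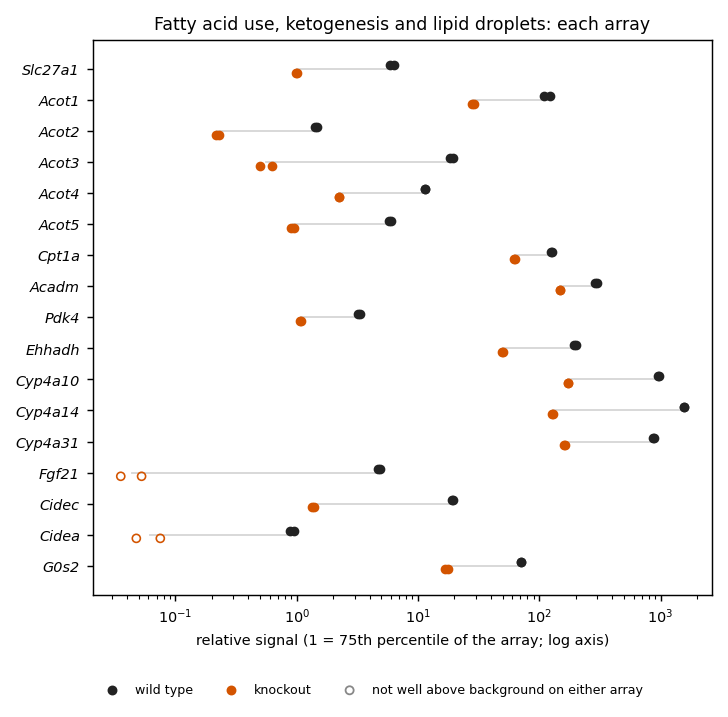
Relative signal (log axis) of 17 genes of fatty acid use, ketogenesis and lipid droplets on each of the 2 wild-type (black) and 2 knockout (orange) arrays; open circles mark a group not well above background on either array. Every gene drawn was lower on both knockout arrays than on both wild-type arrays. Among those well above background in both groups, Acot3 (19.4 and 18.4 against 0.495 and 0.631) differed most. Acadm (299 and 289 against 148 and 147) differed least.

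The receptor and its partners differed by less than 2-fold. Ppara itself read 91.6 and 87.2 in wild type and 55.6 and 52.0 in knockout (-0.73), its dimer partner Rxra differed by -0.25 and the coactivators Ppargc1a and Ppargc1b by -0.54 and -0.28. Hnf4a, the hepatocyte nuclear receptor, differed by -0.17. Of 12 measured members Lpin1 alone was called, and it was higher: this phosphatidate phosphatase and PPAR-alpha coactivator differed by 1.12 (pairings 1.09 to 1.16). The perfect DR1 element, a direct repeat that PPAR-alpha and RXR bind, was searched on both strands in RefSeq promoters (GRCm38.p6), from 250 bases before to 50 after each start. It lay in none of the promoters found for the called members of the lists from fatty acid uptake to lipid droplets, and in 0.0396% of all 32851 promoters.

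Fatty acid synthesis had more members higher than lower. Of 20 measured members 6 were called higher and 1 lower, with a median of 0.43. Srebf1, the transcription factor of the pathway, read 0.665 and 0.693 in wild type and 3.52 and 3.63 in knockout, a difference of 2.40 (pairings 2.35 to 2.45). Thrsp, a lipogenic nuclear protein, read 20.6 and 20.6 in wild type and 113 and 116 in knockout (2.47). The desaturase Scd1 read 77.7 and 76.6 in wild type and 213 and 211 in knockout (1.46), and Scd2, Aacs and Fasn differed by 1.94, 1.24 and 1.15. Acaca and Acly, 2 central enzymes of the same route, were not called (0.41 and 0.45). Elovl5, which extends polyunsaturated fatty acids, was lower at 92.9 and 87.2 in wild type and 32.4 and 32.9 in knockout (-1.46), a call lost under median scaling. The calls of Fasn and Scd2 were lost after normexp correction.

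Ppp1r3c, a glycogen-targeting subunit of protein phosphatase, was higher at 3.94 and 3.75 in wild type and 12.6 and 12.7 in knockout (1.72). Of 17 measured genes of glycolysis and glycogen 2 were called higher, Ppp1r3c among them, and none lower. The core enzymes of gluconeogenesis were not called: Pck1 read 679 and 689 in wild type and 608 and 599 in knockout (-0.18), G6pc differed by -0.37, Fbp1 by -0.60 and Pcx by -0.84. Among 17 members Sik1 (-1.25), Igfbp1 (-1.09) and Got1 (-1.09) were called lower, and median scaling left 0 of the 3 called. The calls of Igfbp1 and Got1 were lost under 5 of 5 other scalings and background corrections, and that of Sik1 also after normexp correction.

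In cholesterol synthesis and uptake 8 of 27 members were called higher, against 3.37% of all genes, and none lower. The median was 0.79 and 22 members had positive differences. Most of the called genes lie along the route from isoprenoids to sterols. Idi1, which isomerises the first isoprenoid unit, read 7.32 and 6.96 in wild type and 18.8 and 18.4 in knockout (1.38). Fdps, which joins such units, read 10.2 and 10.5 in wild type and 50.6 and 52.4 in knockout (2.32). Sqle, the squalene epoxidase, read 0.924 and 0.861 in wild type and 4.51 and 4.15 in knockout (2.28). Squalene epoxidation is the first step on the way from squalene to the sterol ring. Cyp51, which removes a methyl group from the sterol ring, read 0.269 and 0.307 in wild type and 1.28 and 1.31 in knockout (2.18), and Nsdhl, a later demethylating enzyme, read 0.614 and 0.579 in wild type and 3.37 and 3.44 in knockout (2.51). Hmgcs1, an early step of the route, came to 0.97 and missed the rule. Srebf2, the regulator, differed by -0.07 at its brightest probe but by 1.98 at its other probe. Between 6 and 11 members were called under the other scalings and background correction.

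The CCAAT box, to which NF-Y binds beside SREBP at sterol genes, lay on either strand in the promoters of all 5 called cholesterol genes that had a promoter in the table, beside 37.4% of all 32851 promoters and 42.6% of measured genes. For fatty acid synthesis it lay in 4 of 5. The exact consensus of the sterol regulatory element (SRE) lay in none of these, and in 0.0913% of all promoters. The 150 bases before the start are shown for the 3 called cholesterol genes whose box lies nearest to the start and for Fasn, which holds the most boxes of the called fatty acid genes. They were chosen after their values were seen, and are printed with CCAAT or its complement ATTGG in capitals, 5′ to 3′ on the strand of the gene. They are Idi1 at chr13:8885456-8885605 (plus), Cyp51 at chr5:4104698-4104847 (minus), Nsdhl at chrX:72918371-72918520 (plus) and Fasn at chr11:120824548-120824697 (minus), all in GRCm38.p6.
Idi1: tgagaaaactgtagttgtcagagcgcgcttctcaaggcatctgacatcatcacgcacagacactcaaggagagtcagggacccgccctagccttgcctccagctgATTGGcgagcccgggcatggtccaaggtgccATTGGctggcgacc
Cyp51: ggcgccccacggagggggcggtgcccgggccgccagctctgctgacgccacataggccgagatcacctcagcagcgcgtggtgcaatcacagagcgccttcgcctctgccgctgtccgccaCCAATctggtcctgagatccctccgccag
Nsdhl: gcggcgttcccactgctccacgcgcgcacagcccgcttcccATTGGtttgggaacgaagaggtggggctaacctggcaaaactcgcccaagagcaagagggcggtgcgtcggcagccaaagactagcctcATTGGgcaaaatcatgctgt
Fasn: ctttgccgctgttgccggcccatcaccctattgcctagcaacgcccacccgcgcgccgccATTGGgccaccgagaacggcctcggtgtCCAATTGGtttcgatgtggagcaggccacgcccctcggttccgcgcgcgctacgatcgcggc
Within these windows Idi1 and Nsdhl each held 2 boxes, Cyp51 held 1 and Fasn held 3, of which 2 overlap. A match is a description of letters and shows no binding.

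Bile acid synthesis was lower at 2 of its regulated enzymes. Cyp7a1, the rate-limiting step, read 11.2 and 11.1 in wild type and 2.52 and 2.44 in knockout, a difference of -2.17 (pairings -2.21 to -2.14), and Cyp8b1, which sets the share of cholic acid, read 21.3 and 20.2 in wild type and 6.84 and 7.59 in knockout (-1.53), a call lost under median scaling. Nr0b2, the repressor SHP, differed by 0.79 and Cyp27a1 of the alternative route by 0.79; neither was called. The anion importer Slco1a1 was higher at 7.94 and 7.82 in wild type and 25.6 and 25.2 in knockout (1.69), the third call among 21 members. Among 19 apolipoprotein and lipoprotein genes Apoa4, a fasting-induced apolipoprotein, was lower at 33.0 and 33.3 in wild type and 5.72 and 5.95 in knockout (-2.51) and the hepatic lipase Lipc was higher (1.16), while Apob (-0.15) and Apoa1 (-0.10) were not called.

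**Figure D3:**
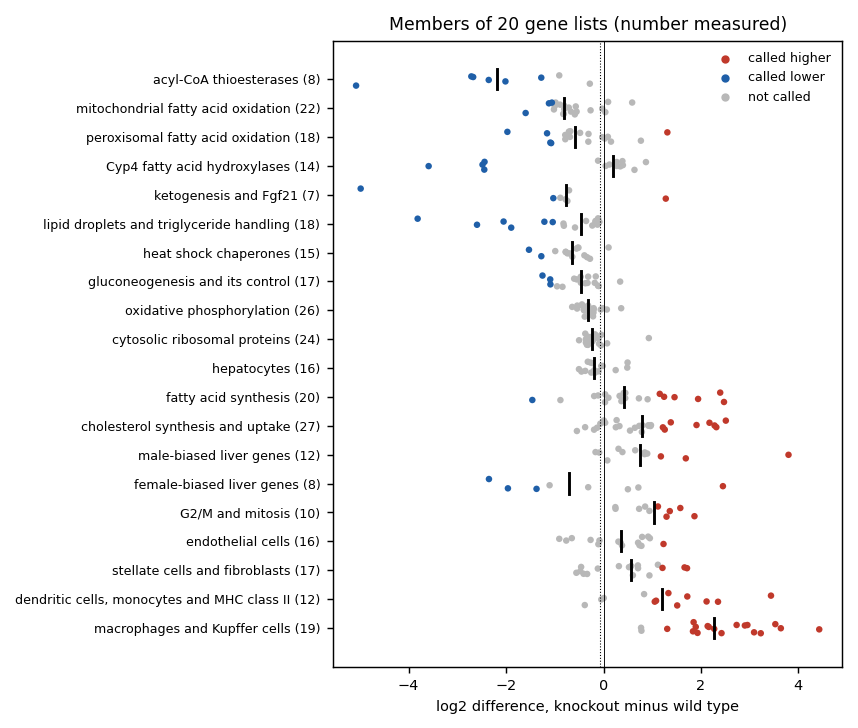
Log2 difference (knockout minus wild type) of every measured member of 20 gene lists, with the number measured in brackets; dots are red when called higher, blue when called lower and grey otherwise, black bars are list medians and the dotted line is the median of all genes (-0.08). Thioesterases sit farthest to the left (median -2.18) and macrophage markers farthest to the right (median 2.27), while hepatocyte markers (-0.19) lie near the dotted line.

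Several hormone- and stress-responsive genes were lower in the knockout sample. The metallothioneins, which bind zinc and respond to glucocorticoids and metals, were bright: Mt1 read 315 and 309 in wild type and 65.1 and 70.2 in knockout (-2.21) and Mt2 read 265 and 261 in wild type and 42.9 and 44.8 in knockout (-2.58). Gadd45b, a stress-induced gene, read 3.99 and 3.88 in wild type and 0.517 and 0.539 in knockout (-2.90). The best-known glucocorticoid targets were not called. Fkbp5 and Per1 each differed by -0.62, Tsc22d3 by 0.34 and the receptor Nr3c1 by 0.23, and with Lpin1 and Igfbp1 the list of 17 had 4 called lower and 1 higher, of which Igfbp1 was the 1 lost under the other scalings and background corrections. The metal element TGCGCNC lay in the promoters of Mt1 and Mt2 but in none of the other called members of that list. It also lay in 15.4% of all promoters and 28.4% of those of measured genes. Mt2 held a match before the start and another after it, whereas the match of Mt1 lies after the start. The window before the start of Mt2 is shown with its match in capitals, at chr8:94172468-94172617 (plus, GRCm38.p6).
Mt2: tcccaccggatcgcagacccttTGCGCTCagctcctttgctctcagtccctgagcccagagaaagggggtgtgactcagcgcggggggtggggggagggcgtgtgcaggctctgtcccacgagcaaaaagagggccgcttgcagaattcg

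Among targets of ATF4, the factor of the amino acid response, and genes of the unfolded protein response, 23 were measured. Asns, asparagine synthetase, was lower at 4.15 and 3.96 in wild type and 0.766 and 0.707 in knockout (-2.46) and so was Atf5 (-1.57), a factor of the same response. Chac1, a glutathione-degrading enzyme of the same response, was higher at 2.57 and 2.30 in wild type and 7.15 and 7.58 in knockout (1.6), and so were the endoplasmic reticulum proteins Hyou1 (1.31) and Creld2 (1.1). Atf4 (-0.48), Ddit3 (0.18) and Trib3 (-0.56) were not called. The called genes of this list thus ran both ways. Of 15 heat shock chaperones Hspa1a (-1.53) and Hspb1 (-1.28) were called lower, 14 had negative differences and the median was -0.64 (-0.44 to -0.53 under the other scalings and background correction). Of 15 immediate early genes, Egr1 read 0.910 and 0.770 in wild type and 0.248 and 0.281 in knockout (-1.66) and Jun read 6.41 and 6.40 in wild type and 2.43 and 2.44 in knockout (-1.40), and both were called lower, while Junb and Ier2 were not called. Normexp correction ended the calls of Hyou1, Hspa1a and Egr1, and median scaling those of Hspb1 and Jun.

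Genes with sex-dependent expression in liver, which growth hormone sets, differed in both directions in these males. Hsd3b5, a male-biased steroid dehydrogenase, read 4.08 and 4.24 in wild type and 56.3 and 59.4 in knockout, a difference of 3.80 (pairings 3.73 to 3.86). The male-biased Slco1a1 and C8a were also higher (1.18 for C8a), while Elovl3 (0.65) and Cyp2d9 (0.31) were not called. The list of 12 had 3 called higher, none lower and a median of 0.75. Among 8 female-biased genes Fmo2 read 5.46 and 5.30 in wild type and 1.06 and 1.05 in knockout (-2.35), the prolactin receptor Prlr read 7.53 and 7.34 in wild type and 1.91 and 1.90 in knockout (-1.96) and Cyp17a1 differed by -1.37, all called lower. Ntrk2 was called higher, but its knockout duplicates disagreed, at 0.587 and 1.62, with neither wild-type array well above background. The calls of Cyp17a1 and Ntrk2 were lost after normexp correction, that of Cyp17a1 under median scaling too. Of the growth hormone axis Socs2, a feedback inhibitor induced by the hormone, was lower at 3.06 and 2.91 in wild type and 0.625 and 0.612 in knockout (-2.27). Igf1 (-0.35), the receptor Ghr (0.20) and Stat5b (0.23) were not called.

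Steroid-metabolising enzymes gave some of the largest values. Hsd17b6 read 1.25 and 1.18 in wild type and 12 and 11.9 in knockout, a difference of 3.30 (pairings 3.26 to 3.34), and Sult1e1, the oestrogen sulphotransferase, read 1.64 and 1.58 in wild type and 0.169 and 0.188 in knockout, a difference of -3.18 (pairings -3.28 to -3.07). Hsd3b2 (1.77) and Akr1c6 (1.24) were also higher, which with Hsd3b5 and Cyp17a1 made 4 higher and 2 lower of 14. Among 27 genes of foreign-compound metabolism 4 were higher and none lower. Cyp2c70, a hydroxylase of bile acids, read 39.7 and 38.3 in wild type and 236 and 242 in knockout (2.62) and Cyp2c55 read 0.292 and 0.176 in wild type and 2.0 and 2.0 in knockout (3.14), where 1 of the 2 wild-type arrays was well above background. Cyp1a2, which metabolises caffeine, was higher (1.18). Cyp2c38 was called at its brightest probe (1.09), but its other probe came to -1.29, and its close paralogs make the call uncertain. Cyp3a11 (0.25), Cyp2b10 (0.31) and Cyp2e1 (-0.45) were not called. Of 25 glutathione transferases and NRF2 targets Gsta1 read 1.93 and 1.97 in wild type and 8.47 and 8.57 in knockout (2.13), and Gsta4, Gstm3, Gstm4 and G6pdx were higher (1.37, 1.15, 1.23 and 1.14); the other probe of Gstm4 came to 0.09, and G6pdx lost its call after normexp correction. The NRF2 markers Nqo1 (-0.93) and Gclc (0.27) were not called and Srxn1 was lower (-1.10), a call lost under 5 of 5 other scalings and background corrections.

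Macrophage and Kupffer cell markers were higher almost throughout: 17 of 19 measured were called higher, against 3.37% of all genes, and the other two, Cd163 and Laptm5, had positive differences. Adgre1, which encodes the F4/80 antigen, read 1.09 and 1.06 in wild type and 9.91 and 10.3 in knockout, a difference of 3.23 (pairings 3.18 to 3.28). Clec4f, a lectin found on Kupffer cells, read 9.14 and 8.90 in wild type and 31.0 and 33.4 in knockout (1.84), and Timd4, a receptor for dying cells, read 0.157 and 0.165 in wild type and 2.13 and 1.98 in knockout, with neither wild-type array well above background and knockout at least 11.5-fold higher. Clec4f and Timd4 are both used to mark resident Kupffer cells. Marco, a scavenger receptor, read 6.47 and 6.31 in wild type and 76.4 and 83.1 in knockout (3.64) and lysozyme Lyz2 read 0.231 and 0.202 in wild type and 4.62 and 4.68 in knockout, a difference of 4.43 (pairings 4.32 to 4.53). The complement genes C1qa and C1qb differed by 3.09 and 2.95, the growth factor receptor Csf1r by 2.16 and the endotoxin receptor Cd14 by 2.90. The relative signals of the 19 markers summed to 85.3 and 81.3 in wild type and 447 and 456 in knockout, and their median difference was 2.27. Under the other scalings and background correction 16 or 17 stayed called, with a median from 2.22 to 2.47. The PU.1 element GAGGAAGT, of the factor that specifies macrophages, lay, on either strand, in 2 of the 11 called markers that had a promoter in the table, C1qc and Ctss, and in 3.20% of all promoters and 3.67% of those of measured genes.

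**Figure D4:**
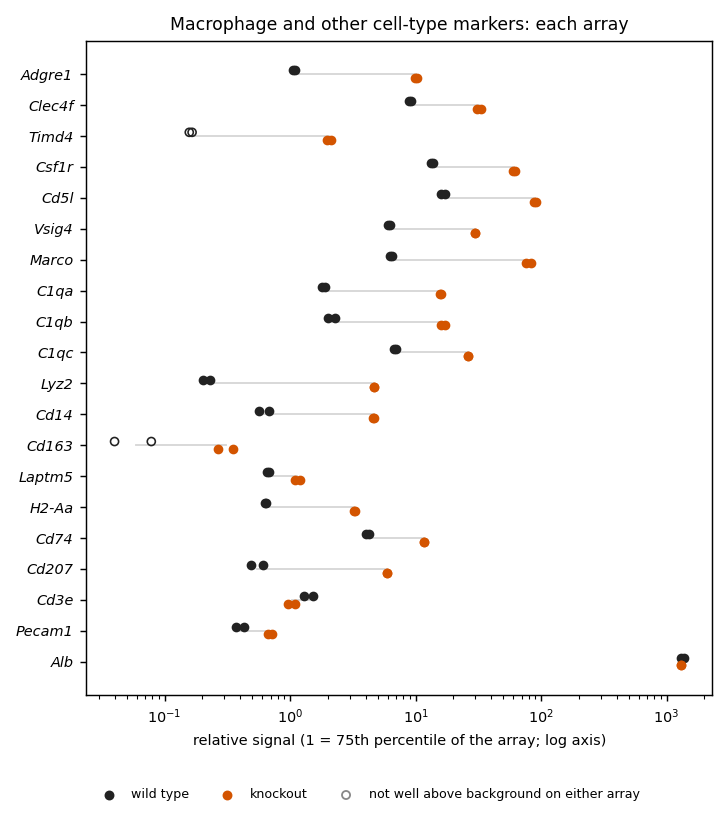
Relative signal (log axis) of 20 cell-type markers on each of the 2 wild-type (black) and 2 knockout (orange) arrays; open circles mark a group not well above background on either array. The 14 macrophage genes from Adgre1 to Laptm5 lie to the right in knockout, Marco at 76.4 and 83.1 against 6.47 and 6.31, while Cd3e lies to the left and Alb differed by -0.05.

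Antigen-presentation and dendritic cell genes were called higher in 8 of 12 measured members and lower in none, with a median of 1.21. H2-Aa, a chain of the MHC class II molecule, read 0.629 and 0.643 in wild type and 3.22 and 3.26 in knockout (2.35), and its chaperone Cd74 read 3.99 and 4.22 in wild type and 11.8 and 11.6 in knockout (1.51). Cd207, the lectin langerin, read 0.486 and 0.611 in wild type and 5.88 and 5.93 in knockout, a difference of 3.44 (pairings 3.27 to 3.61), and Batf3 and H2-DMa differed by 1.72 and 2.12. Itgax, Ccr2, Xcr1 and Cd209a did not pass the background criterion in either group. Chemokines were led by Cxcl13, which attracts B cells, at 0.336 and 0.331 in wild type and 3.36 and 3.31 in knockout, a difference of 3.32 (pairings 3.30 to 3.34). Ccl6 (1.48) and Cxcl9 (1.15) were also among the 4 called of 16, and Ccl5 and Cxcl1 were not (0.05 and 0.26). Normexp correction left 5 of the 12 antigen-presentation genes called, without Batf3 and H2-DMa, and 2 of the 16 chemokine genes, without Cxcl9, which also lost its call with the mean of its probes. The macrophage markers moved with every other difference given here, since there is 1 RNA sample per group, and their part in those results was not tested.

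Markers of other liver cell types gave fewer calls. None of the 16 hepatocyte markers was called: Alb read 1314 and 1376 in wild type and 1302 and 1303 in knockout (-0.05) and Ttr differed by -0.19. Their summed relative signal was 10826 and 11003 in wild type and 9433 and 9613 in knockout, and their median of -0.19 became positive under 3 of 5 other scalings and background corrections (up to 0.14). Endothelial markers had 1 call of 16 and a median of 0.37; Tek was higher (1.23), a call lost after normexp correction, Pecam1 differed by 0.79 and Stab2 by 0.31. Stellate and fibroblast genes had 3 of 17 called higher, a median of 0.57 and summed signals of 237 to 239 in wild type and 199 to 202 in knockout. Acta2, smooth muscle actin, read 0.436 and 0.428 in wild type and 1.40 and 1.44 in knockout (1.71), Col3a1 differed by 1.66 and Vim by 1.21, while Lrat, the retinol enzyme of quiescent stellate cells, came to 0.94 and was not called. Of 11 T and NK cell genes Gzma was called (1.34), which median and quantile scaling and normexp correction ended (down to 0.67), and Cd3e was not (-0.45). Of 5 measured neutrophil genes S100a8 (1.71) and S100a9 (1.24) were called higher, and normexp correction left 0 of the 2 called. The other 3 had negative differences, and the median was -0.10. Their summed relative signal over all 5 was 122 and 120 in wild type and 108 and 111 in knockout. A further 7 of the 12 neutrophil markers on the array, Mpo and Ltf among them, did not pass the background criterion. The erythroid (6 measured) and B cell (2 measured) lists had no call, and the B cell gene Ms4a1 did not pass the criterion.

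Genes of the 2 ends of the liver lobule were also compared. Among 9 pericentral genes Cyp1a2 was higher and Oat lower (-1.07), while Glul, glutamine synthetase, differed by -0.79. Among 9 periportal genes Cdh1 was higher at 0.782 and 0.863 in wild type and 2.55 and 2.51 in knockout (1.62), and Cyp2f2 (0.09), Hal (0.34) and Sds (0.33) were not called. Of 27 urea cycle and amino acid genes Asl (-1.11), Oat and Sdsl (-1.05) were called lower, and 5 of 5 other scalings and background corrections left 0 of the 3 called. Cps1 (0.49) and Otc (0.53) were not called.

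A few genes known mainly from other organs were detected. Prap1, an intestinal gene, read 0.139 and 0.172 in wild type and 3.18 and 3.19 in knockout and was at least 17.9-fold higher in knockout, and Krt20 and Guca2b were at least 2.77-fold and 3.23-fold higher. In the opposite direction, Fabp2 (-1.39) and Lgals4 (-1.27) were lower, calls that median scaling ended. Of 11 measured intestinal genes 8 had positive and 3 negative differences. Their summed relative signal was 305 and 296 in wild type and 142 and 142 in knockout. Prap1, Krt20 and Guca2b passed the background criterion through knockout alone, so the count of signs is no support. Among the 4 intestinal genes well above background on all 4 arrays the median was -0.79, against 0.64 over all 11. The calls of Krt20, Guca2b and Reg1 were lost after normexp correction (0.55, 0.77 and 0.77, log2). The defining intestinal genes Cdx1, Cdx2, Muc2 and Cdh17 did not pass the background criterion in either group. Reg1, a pancreatic gene, was at least 4.32-fold higher, while the pancreatic enzyme genes Cpa1, Pnlip and Cela2a did not pass. Of the 3 measured pancreatic genes the other 2 had negative differences, and the median was -0.18. Of 9 adipocyte markers 4 were measured, and 1, Cfd (complement factor D), was called lower (-1.09), a call lost under 5 of 5 other scalings and background corrections. Their summed relative signal was 11.0 and 10.5 in wild type and 13.6 and 13.8 in knockout, and Adipoq, Lep and Plin1 did not pass. Of 7 skeletal muscle markers 1 was measured and not called (-0.60), while Ckm and Acta1 did not pass. The part of these tissues in the other results was not tested.

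Mitotic genes were dim. Of 23 genes of G2/M and mitosis, 10 were measured, all 10 had positive differences and 5 were called higher. Mki67, the proliferation antigen, read 0.170 and 0.211 in wild type and 0.728 and 0.657 in knockout (1.87), Ccnb2 read 0.346 and 0.259 in wild type and 0.852 and 0.935 in knockout (1.58) and Cdc20 differed by 1.36. Ccna2 and Prc1 were not well above background in wild type and at least 2.45-fold and 2.17-fold higher. A gene this dim enters the set mostly through the group in which it is brighter, so the shared sign is no support, and normexp correction left 0 of the 5 calls. Cyclin D1 (Ccnd1), which Btg2 is known to restrain, was brighter: it read 1.84 and 1.85 in wild type and 4.14 and 4.16 in knockout (1.17). Ccnd2 was higher too (1.21), a call lost after normexp correction, and Rb1 (0.04), Cdkn1b (0.04) and Pcna (0.34) were not called. None of 16 measured p53 targets was called, including Cdkn1a (-0.67) and Mdm2 (-0.26). Of 16 measured BTG/TOB and CCR4-NOT genes Btg2 alone was called; Btg1 differed by -0.09, Btg3 by 0.59 and Tob1 by -0.71.

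Some of the remaining lists had no call, and others had calls both ways. None of the 26 genes of oxidative phosphorylation was called, with a median of -0.31 (-0.09 to -0.21 under the other scalings and background correction), nor any of 24 ribosomal protein genes, at -0.23, which was -0.03 to 0.04 under median and quantile scaling. None of 16 clock genes was called: Dbp differed by -0.19, Nr1d1 by 0.04, Per2 by 0.13 and Arntl by 0.51. None of 15 iron genes was called either, hepcidin (Hamp) differing by -0.12. Acute-phase genes split: Il1r1 (1.49), Steap4 (1.49) and Saa4 (1.30) were higher, Lcn2 read 5.79 and 5.51 in wild type and 1.86 and 1.78 in knockout (-1.63) and was lower, as was Orm3 (-1.36, lost under median scaling and normexp correction), and Saa1 (-0.04) and Hp (-0.40) were not called. Interferon-stimulated genes split as well, with Ifi27l2a (1.62) and Gbp2 (1.13) higher and Usp18 (-1.07), Igtp (-1.06) and Ifit1 (-1.03) lower; those 3 lower calls were lost under 5 of 5 other scalings and background corrections, and that of Gbp2 after normexp correction.

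Of the 590 called genes 157 stood on a list and 433 on none, and the largest differences included many outside them. Among genes measured on all 4 arrays, Cd300e, a myeloid receptor, read 0.207 and 0.195 in wild type and 2.85 and 2.76 in knockout (3.80). Wfdc17 read 3.17 and 3.25 in wild type and 27.3 and 28.8 in knockout (3.12), Folr2, a folate receptor of tissue macrophages, read 0.851 and 0.927 in wild type and 7.09 and 7.13 in knockout (3.00), and Scara5, a ferritin receptor, read 0.333 and 0.471 in wild type and 3.03 and 2.98 in knockout (2.92). Scara5 lost its call with the mean of its probes, at 1.45. Ren2, a renin gene, read 0.169 and 0.183 in wild type and 6.06 and 6.20 in knockout and was at least 34.4-fold higher, and Ctse, cathepsin E, read 0.0601 and 0.0582 in wild type and 5.77 and 5.78 in knockout and was at least 32.4-fold higher. Ren1 read 0.255 and 0.340 in wild type and 0.722 and 0.770 in knockout (1.34), a call lost after normexp correction; the 2 renins are near-identical, so their probes may share signal. Adamdec1, Ptgds, Serpina7 and Fpr2 were at least 10.69-fold, 7.72-fold, 7.93-fold and 7.0-fold higher. On the lower side Slc16a5, a monocarboxylate transporter, read 14.9 and 13.9 in wild type and 0.850 and 0.907 in knockout, a difference of -4.03 (pairings -4.13 to -3.93). Kiss1, which encodes kisspeptin, read 5.21 and 4.52 in wild type and 0.239 and 0.379 in knockout, a difference of -4.01 (pairings -4.45 to -3.58). Lamb3, a laminin chain, read 1.98 and 2.15 in wild type and 0.228 and 0.236 in knockout (-3.15). Myom3, Cgref1 and Tmem43 differed by -2.87, -2.73 and -2.66. Cntnap1, Nipal1 and Rad51b were not well above background in knockout and were at least 7.57-fold, 7.36-fold and 5.04-fold lower.

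The same comparison in fetal liver of embryonic day 13.5, made on 4 other arrays from pooled fetal livers, gave few of these calls. Of the 11799 genes 11403 were measured there, and by the same rule 11 (0.0965%) were higher and 22 (0.193%) lower in the fetal knockout. Only 10 genes were called in both stages, and they are named here after their values had been seen. Ctse, Mgp and Pm20d1 were higher in both, at 5.02 and 5.05 (a bound in adult), 1.5 and 1.45, and 1.24 and 1.39 for adult and fetal liver. Btg2 and Ncmap were lower in both, Ncmap at -1.31 and -1.44. Ren2, Prap1, Guca2b and Klk1b3 were higher in adult and lower in fetal knockout, Ren2 at 5.10 (a bound) and -1.74, and Csrp3 was the reverse at -1.54 and 1.45. None of the members of the fat-use, fatty acid synthesis, cholesterol, glucocorticoid and macrophage lists was called in fetal liver: Acot3 differed by -0.10, Ehhadh by -0.38, Srebf1 by 0.07, Nsdhl by -0.17, Mt2 by 0.23 and Adgre1 by 0.21. The difference between the stages was not tested.

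**Figure D5:**
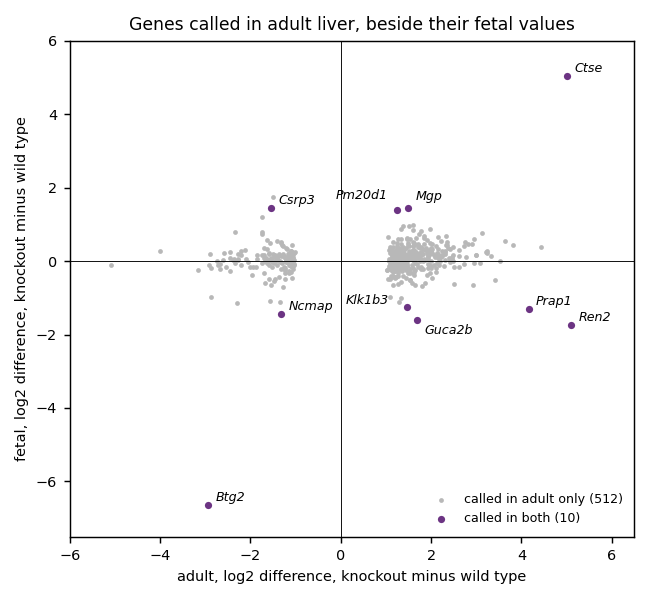
Log2 difference (knockout minus wild type) in adult (horizontal) and fetal liver (vertical) for the 522 genes called in adult and measured in fetal liver. The 512 grey genes were called in adult liver alone, and the 10 named genes, from Btg2 at -6.64 (a bound) to Ctse at 5.05 in fetal liver, were called in both.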

How the data were processed

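Each array held 1 labelling of total liver RNA with 1 dye (Cy3, 200 ng), scanned and read with Feature Extraction 10.7.3.1, per the file headers and labels. The processed signal that the authors deposited is an intensity on a linear scale, corrected for background and detrended within the array, per the file headers. How the deposited value table was scaled is unknown. Its columns shared a median of 18.1 and a 75th percentile of 185, and each correlated with the processed signal of its own array at 0.997 to 0.999.

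Control spots (leaving 59305) and outlier spots were dropped, and log2 values of the spots of a probe were averaged, with each array's 75th percentile of non-control spots subtracted. Names came from RefSeq (GRCm38.p6) for 26762 of 55681 probes, and a gene was read at its brightest probe. The 28919 unnamed probes were left out. A group dim on both arrays was set at the lowest signal well above background on each array, or its own if higher, and folds against it are bounds. On simulated adult arrays (10996 genes), the call rule recovered all 50 genes at each log2 shift of 1.5, -1.5, 2.5 and -2.5. It called 0 of 10796 unshifted genes, but these were given the same mean in both groups, so none could be called. No shift nearer to 2-fold and no gene dim in a group was simulated, so the run does not test such calls. No p-value is given, because technical duplicates leave no degrees of freedom among samples.

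The members and the 56 lists (36 of pathways, 20 of cell types) were chosen with earlier results of these data known. Named genes were Btg2, the 15 largest called differences each way among genes measured on all 4 arrays, the 8 largest bounds each way, the first 4 measured members and up to 6 called members each way of each list, and named genes whose probes disagreed in sign. Any gene named outside that rule is marked as such, and a few genes under it are not reported here.

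Alternatives were median, quantile and detected-probe scaling, normexp correction (offset 50) on median spot and background signals, the value table, other filters and probe rules, other call rules, limma, array pairing, and leaving out each array. Figures and tables used R 4.3.3, limma 3.58.1, Python 3.11.15, numpy 2.4.6, pandas 2.3.3 and matplotlib 3.10.9.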

Additional observations from a re-analysis of the deposited data

Results flagged for a closer look

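In 5 genes both stages met the 2-fold rule but in opposite directions, and the difference between stages was not tested. Ren2 was higher in adult knockout (at least 5.10, log2) and lower in fetal knockout (-1.74). Prap1 was higher in adult (at least 4.16) and lower in fetal knockout (-1.30). Guca2b was higher in adult (at least 1.69) and lower in fetal knockout (-1.60). Klk1b3, a member of a kallikrein cluster of close paralogs, was higher in adult (1.46) and lower in fetal knockout (-1.26, a bound). Csrp3 was lower in adult (-1.54) and higher in fetal knockout (1.45).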

How the results depend on the processing

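Each count rests on 1 RNA sample per group and on array error alone, and genes near background carry a bound in place of a level. Normexp background correction gave 203 genes higher and 88 lower, against 398 and 192. Median scaling left 82 lower. A 1.5-fold rule gave 851 and 776, and keeping unnamed probes gave 291 lower. Leaving out 1 array at a time gave 427 to 468 higher and 230 to 371 lower, where all of the 398 and 192 genes stayed called. The remaining pairings were already required by the rule, so that those genes stayed called carries little information. The extremes, 468 and 371, came without the first wild-type array, and the cause was not tested. Pairing the arrays by slide row (replicate block) gave 414 and 214. All 398 and 192 were among them, because it keeps only some of the pairings that each of these genes already met. That pairing is a shared row on the slide and not a shared animal. Of 167 called genes under the naming rule, 87 kept the call under all 17 settings. A further 15 kept it under every setting but the 1 that leaves out genes dim in a group, where they were not measured. Several of these settings, such as the 1.5-fold rule, the row pairing and leaving out an array, only relax the rule. They could hardly end a call. Cyp2c38 reversed to -0.10 with the mean of its probes.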

Other observations

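Several genes near Btg2 on chromosome 1 were among the called genes, and some are named here after their values had been seen. In the RefSeq order of protein-coding genes, Kiss1 (-4.01) lies 12 genes from Btg2, Ren1 (1.34) 11, Ppfia4 (a bound of 1.62) 6, Pm20d1 (1.24) 35 and Ctse (a bound of 5.02) 38. Of the 46 measured genes within 40 places on either side, 7 were called higher and 1 lower, which is 17.4%. Within 20 places 2 were higher and 1 lower of 22 (13.6%), and within 60 places 12 and 1 of 70 (18.6%). Within 100 places 16 were higher and 3 lower of 117 (16.2%), beside 23 and 6 of 522 (5.56%) on the rest of the chromosome and 5.0% of all genes. Marco of the macrophage list (3.64) was among those 16. In fetal liver 3 genes within 40 places were called higher and none lower, Pm20d1 at 1.39 and Ctse at 5.05 among them. As background, C57BL/6J mice carry a single renin gene, Ren1, while some other strains also carry Ren2. The Ren2 probe was also well above background on both fetal wild-type arrays, at 0.824 and 1.13. In fetal knockout it read 0.299 and 0.279. The strain in which the allele was made, and any part of sequence flanking it in these values, was not tested.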
